A study of Saccharomyces cerevisiae and Saccharomyces pastorianus with 78 samples.

Results

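The autophagy-related (ATG) genes of budding yeast were followed in *Saccharomyces cerevisiae* BY4741 through SDS and EtOH stress. The 35 members were the ATG-named rows picked by systematic name out of the 7127 features of the BY4741 count table. No measured value entered that rule, but the members and their roles were chosen with earlier results of these data known. They fell into 6 roles, and 34 of the 35 had enough counts to be tested. BY4741 is a wild-type haploid laboratory strain of mating type a that carries deletions in histidine, leucine, methionine and uracil synthesis genes, in all groups alike. Poly(A) RNA was sequenced from 39 libraries in 13 groups of 3 biological replicates. The question, as the study's title frames it, was how transcript levels respond over time to stresses of the plasma membrane.

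The SDS groups received 0.01% SDS, an anionic detergent, and were collected after 0.5 and 1 h and then after 2, 4, 8 and 20 h. The EtOH groups received 7% EtOH and were collected at the same 6 times. The control group was taken from YPD culture at 25 °C, near an optical density of 0.1, before any addition. Each culture was divided in 2, and the control sample came from the portion that went on to receive EtOH. The SDS portion had no control of its own, and later times had no untreated culture, so time after addition and time in culture cannot be told apart. Both stresses were set against the same 3 control libraries. RNA came from whole cultures, and levels are relative to the other transcripts, so fewer cells and less RNA per cell cannot be told apart.

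In macroautophagy, a cup-shaped membrane grows around cytoplasm, closes into an autophagosome and fuses with the vacuole, where its content is degraded. A kinase complex starts the process, vesicles and lipid transfer feed the membrane, a phosphatidylinositol 3-kinase marks it, and ubiquitin-like conjugation attaches Atg8 to it. Receptors tie chosen cargo to Atg8, and in growing yeast a related route carries vacuolar enzymes, the cytoplasm-to-vacuole targeting (Cvt) pathway. Several ATG genes are known to be induced by nitrogen starvation.

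Library totals ran from 3105804 to 21167236 counts, with a median of 7706767. Levels are given as CPM, a count divided by its library size after TMM scaling and brought to a common size. An observed count of 0 allows up to 3 counts, which was 0.966 CPM in the smallest library and 0.142 CPM in the largest, for counting error only. These limits, and the control means of the mating and meiosis genes below, were divided by the library total without TMM scaling. LEU2, MET17 and URA3 had 0 counts in all 39 libraries. HIS3, of which BY4741 keeps a part, had 310 to 2650 counts in each. The a-mating genes MFA1, MFA2 and STE2 were detected in all 39, with control means of 69.3, 132 and 601 CPM. The alpha-mating genes MFALPHA2 and STE3 were also detected in all 39, at lower control means of 6.68 and 1.23 CPM. MFALPHA1 had 0 counts in 3 libraries and a control mean of 0.369 CPM. Detection alone therefore does not tell the mating types apart. The meiosis genes IME1, NDT80 and SPS1 were detected in all 39 too, with control means of 8, 17 and 6.49 CPM. The EtOH 20 h libraries were the least alike of any group, with mean correlations of 0.965, 0.976 and 0.955 with the others of the group, on log CPM across genes. Calls rest on edgeR's quasi-likelihood test, at an adjusted p (Benjamini-Hochberg) under 0.05 with a log2 change of 1 or more in either direction. "Rose" and "fell" are used of called genes.

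In the control, levels per kilobase of gene length spanned a wide range. ATG27 (YJL178C), which helps Atg9 traffic, was highest with 165 ± 11.2 CPM per kb (SD, n = 3). ATG41 (YPL250C) followed with 92.3 ± 16.5, ATG42 (YBR139W) with 66.9 ± 4.58 and ATG40 (YOR152C) with 64.9 ± 9.07 CPM per kb, and the last pair differed by less than their spread. At the low end were ATG2 (YNL242W) with 7.45 ± 0.431, ATG10 (YLL042C) with 6.51 ± 2.58 and ATG39 (YLR312C) with 4.07 ± 1.53 CPM per kb, and the spreads of ATG10 and its neighbours in this order overlapped. ATG16 (YMR159C), whose product binds Atg5, had 12 counts in all 39 libraries, with 0 to 5 per library, and was not tested. The table also holds features without a RefSeq position, and whether any of them shares bases with ATG16 was not checked. All 50-base sequences of the 35 members were unique in the genome. ATG29 (YPL166W) shares 24 bases with SET6 on the other strand, and no other member overlaps a RefSeq gene.

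The upstream sequence of the 4 members with the largest called rise, ATG41, ATG34, ATG8 and ATG33, is shown. Each run covers 250 bases before and 50 bases after the start of the coding sequence, on the coding strand of the RefSeq R64 genome. The windows are chrXVI:74670-74969 (minus strand) for ATG41, chrXV:165464-165763 (plus) for ATG34, chrII:80682-80981 (minus) for ATG8 and chrXII:840071-840370 (plus) for ATG33. Capitals mark matches, on either strand and with overlaps kept, to 6 motifs. These were AGGGG (the stress response element of Msn2 and Msn4), GGCGGC (the core of the Ume6 site), GATAAG (bound by GATA factors), TGACTC (a Gcn4 site), CCGCGG (a core of the pleiotropic drug response element) and GAANNTTC (a heat shock element).
ATG41: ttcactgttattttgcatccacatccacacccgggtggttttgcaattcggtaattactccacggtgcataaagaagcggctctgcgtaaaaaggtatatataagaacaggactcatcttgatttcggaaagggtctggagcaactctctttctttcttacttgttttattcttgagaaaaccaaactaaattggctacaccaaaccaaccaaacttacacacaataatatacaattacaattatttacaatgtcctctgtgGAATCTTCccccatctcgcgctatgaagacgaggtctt
ATG34: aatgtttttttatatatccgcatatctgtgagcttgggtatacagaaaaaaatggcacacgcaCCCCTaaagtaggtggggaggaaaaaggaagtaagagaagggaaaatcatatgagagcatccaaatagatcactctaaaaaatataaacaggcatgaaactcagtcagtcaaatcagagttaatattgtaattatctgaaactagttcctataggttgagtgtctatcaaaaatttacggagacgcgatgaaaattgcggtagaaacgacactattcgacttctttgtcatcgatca
ATG8: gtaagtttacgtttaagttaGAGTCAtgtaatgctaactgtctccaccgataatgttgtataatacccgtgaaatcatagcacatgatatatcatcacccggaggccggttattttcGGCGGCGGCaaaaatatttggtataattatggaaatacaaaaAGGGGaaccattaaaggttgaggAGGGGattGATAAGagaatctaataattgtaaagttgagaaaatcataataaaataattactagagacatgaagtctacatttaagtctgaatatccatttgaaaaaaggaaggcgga
ATG33: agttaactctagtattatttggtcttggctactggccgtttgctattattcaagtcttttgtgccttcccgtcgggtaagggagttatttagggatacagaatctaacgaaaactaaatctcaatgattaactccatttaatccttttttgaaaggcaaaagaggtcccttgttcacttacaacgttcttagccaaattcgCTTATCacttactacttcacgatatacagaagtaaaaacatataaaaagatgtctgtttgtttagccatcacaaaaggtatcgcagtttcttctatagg

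ATG8 held 2 stress response elements, 2 overlapping Ume6 cores in GGCGGCGGC, a GATA site and a Gcn4 site. ATG34 held 1 stress response element, ATG33 1 GATA site, and ATG41 a heat shock element inside its coding sequence. ATG42, which is not shown, held 2 stress response elements, a Ume6 core, a Gcn4 site and a heat shock element. Over all 35 members, 8 windows (22.9%) held AGGGG, beside 21.6% of the 6001 windows of the genome, and 3 (8.57%) held GGCGGC, beside 5.13%. GATAAG was in 10 (28.6%), beside 14.7%, TGACTC in 7 (20%), beside 7.98%, and GAANNTTC in 5 (14.3%), beside 11.8%. CCGCGG was in 0, beside 1.23%. A match is a string of letters in this window and not a measured site.

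In SDS most calls came early. At 0.5 h, 8 of 34 members rose and 1 fell, where 8.49% of the 6101 genes tested rose and 10.6% fell. At adjusted p alone, 26 members were higher and 1 lower, where 30.6% of all genes were higher and 28.8% lower. The median log2 change over the members was 0.72, beside 0.02 over all genes. The members that rose were the receptor genes ATG34 and ATG19, the mitophagy gene ATG33, ATG8, the vacuolar carboxypeptidase gene ATG42, ATG9, ATG31 and ATG38. ATG41 fell.

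At later SDS times fewer members stood apart. At 1 h, 5 rose (5.79% of all genes) and 0 fell (5.56%). At 2 h, 5 rose (5.8%) and 1 fell (3.67%). At 4 h, 5 rose (7.69%) and 0 fell (2.79%). At 8 h, 0 rose (4.11%) and 1 fell (2.03%), and at 20 h 0 rose (2.7%) and 1 fell (1.97%). For the counts of 0 in edgeR, members in that direction at an unadjusted p under 0.05 numbered 2 and 1 lower at 1 and 4 h, and 11 and 11 higher at 8 and 20 h. DESeq2 called 1 member lower at 1 h and 0 in the other cases. The members' medians were 0.31, 0.31, 0.34, 0.06 and 0.16 from 1 to 20 h. Over any SDS time 11 members changed, 9 higher and 2 lower, where 25% of all genes did, and 21 of 34 members had their largest change at 0.5 h, as did 40.1% of all genes.

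**Figure D1:**
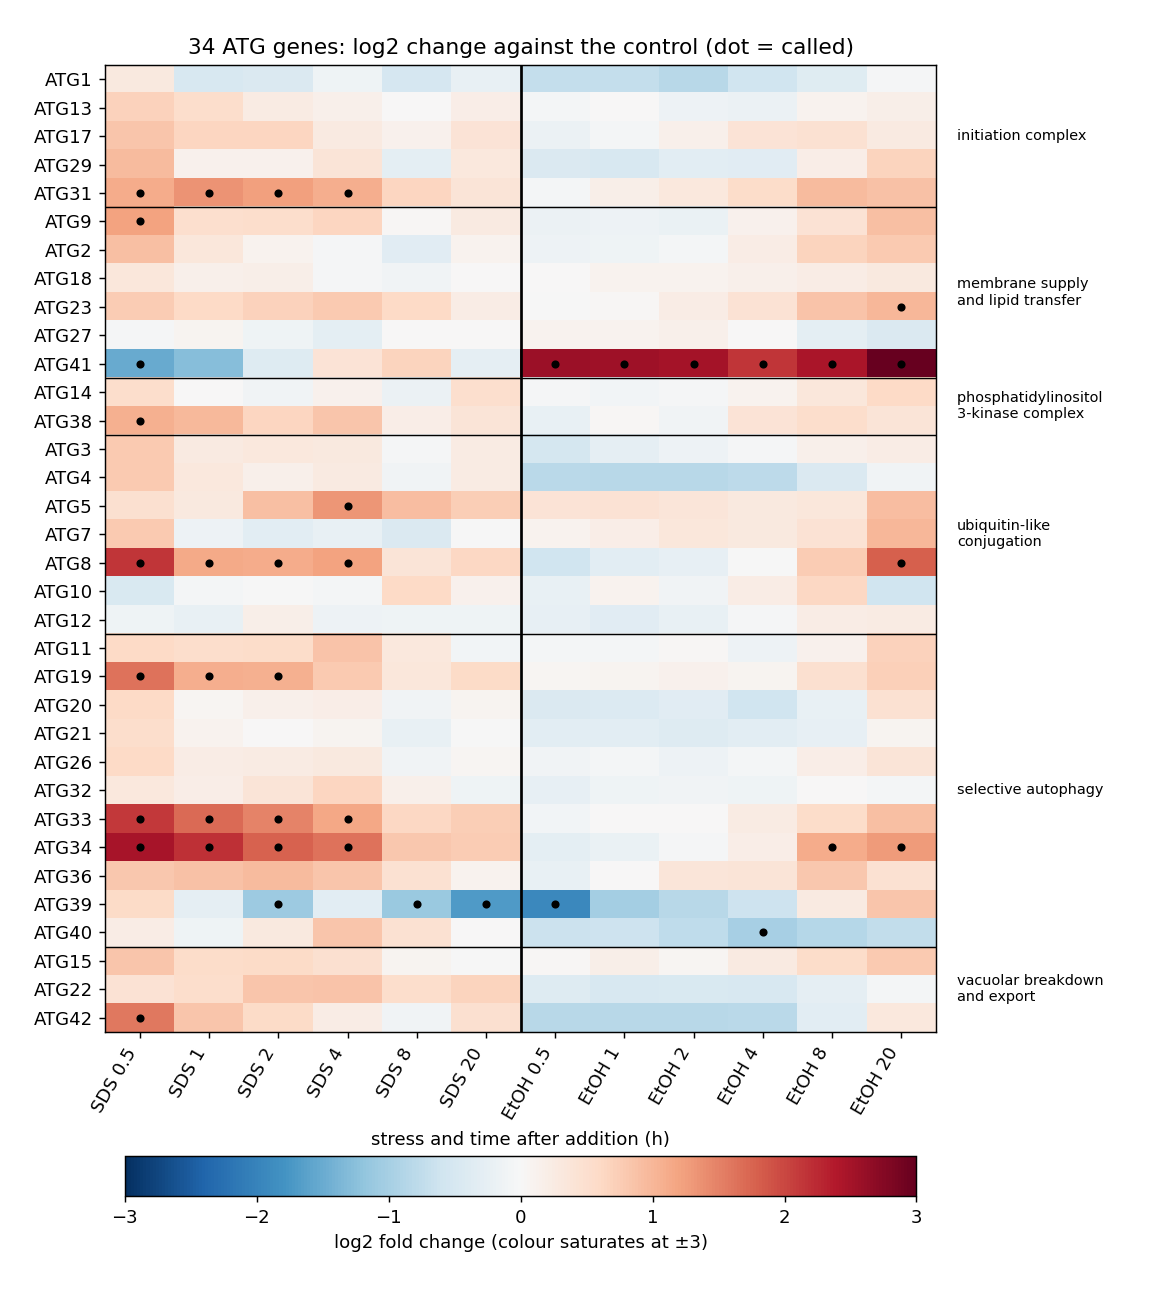
Log2 change of each of the 34 tested ATG genes (rows, grouped by role) against the control, at the 6 SDS times and the 6 EtOH times (columns, hours after addition). Red is higher, blue lower, and a dot marks a called gene. The SDS 0.5 h column holds 9 dots, and ATG41 is the one gene with a dot at all 6 EtOH times.

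Among the initiation genes, 1 of 5 was called in SDS, where 25% of all genes were at any SDS time. ATG31 (YDR022C, chromosome IV, 488072 to 488662, build R64), a partner of the scaffold Atg17, had 19.2, 26.7 and 22.6 CPM at SDS 1 h, against 10.8, 8.25 and 7.87 CPM in the control. The groups did not overlap, and ATG31 rose by a log2 change of 1.34 ± 0.16 (SE, adjusted p 3.52e-08), with 1.11, 1.23 and 1.10 at 0.5, 2 and 4 h, each called. At 8 and 20 h its changes were 0.64 and 0.38. The kinase gene ATG1 (YGL180W) had a log2 change of 0.29 at SDS 0.5 h and ran from -0.51 to -0.14 from 1 to 20 h, with no call. ATG13 (YPR185W), which regulates the kinase, ATG17 (YLR423C), the scaffold, and ATG29, another scaffold partner, had changes of 0.69, 0.84 and 0.94 at 0.5 h. These were under a log2 change of 1.

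Of the membrane supply genes, 1 of 6 rose and 1 fell, where 12.3% of all genes rose and 12.7% fell at any SDS time. ATG9 (YDL149W, chromosome IV, 184925 to 187918), which encodes the membrane protein of the seed vesicles, had 79.1, 71.3 and 67 CPM at SDS 0.5 h, against 29.3, 35.1 and 29.7 CPM in the control. All SDS libraries lay above the controls, and the log2 change was 1.21 ± 0.16 (adjusted p 8.46e-08). ATG41 (YPL250C, chromosome XVI, 74309 to 74719), whose product helps deliver Atg9, had 15.5, 12.5 and 11.7 CPM at SDS 0.5 h, against 45.8, 34.6 and 33.5 CPM in the control. Here the SDS libraries lay below every control, with a log2 change of -1.52 ± 0.61 (adjusted p 0.0319). That call was lost without control replicate 1 or without any one of the 3 SDS 0.5 h libraries, at log2 changes of -1.65 to -1.36 and adjusted p of 0.0511 to 0.0862. These fits took the spread from all groups, among them EtOH 20 h, where ATG41 had 52.4 to 1360 CPM. With only the compared libraries the call at SDS 0.5 h was kept. ATG41 stood at -1.27 at 1 h and at 0.66 at 8 h, neither called by edgeR on all libraries, and DESeq2 (adjusted p 0.0439) and edgeR on the compared libraries (adjusted p 7.02e-05) called it lower at 1 h. The lipid transfer gene ATG2 and the Atg9 trafficking gene ATG23 (YLR431C) had changes of 0.90 and 0.76 at 0.5 h, ATG18 (YFR021W), which binds the phosphoinositide mark, 0.34, and ATG27 -0.05.

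ATG38 (YLR211C, chromosome XII, 563792 to 564531), a linking subunit of the phosphatidylinositol 3-kinase complex, had 32.6, 32.6 and 32.9 CPM at SDS 0.5 h, against 15.8, 15.8 and 14.9 CPM in the control. It rose by a log2 change of 1.07 ± 0.12 (adjusted p 2.99e-09), and the groups did not overlap. ATG14 (YBR128C), the subunit that assigns the complex to autophagy, had a change of 0.52 and was not called.

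Among the conjugation genes, 2 of 7 tested rose in SDS, where 12.3% of all genes did at any SDS time. ATG8 (YBL078C, chromosome II, 80378 to 80731) encodes the ubiquitin-like protein that coats the membrane, and its window, shown with the others, held 2 stress response elements. It had 90.8, 87.9 and 73.6 CPM at SDS 0.5 h, against 20, 19 and 18 CPM in the control. The lowest SDS library was far above the highest control, and the log2 change was 2.14 ± 0.23 (adjusted p 1.92e-09). ATG8 was also called at 1, 2 and 4 h, at 1.13, 1.11 and 1.20, the first lost without SDS 1 h replicate 1, at 0.895. It had changes of 0.39 and 0.61 at 8 and 20 h. ATG5 (YPL149W, chromosome XVI, 271310 to 272194), part of the complex that attaches Atg8 to lipid, was later. It had 106, 134 and 144 CPM at SDS 4 h, against 53.6, 46.5 and 53.4 CPM in the control. The groups did not overlap, and the log2 change at 4 h was 1.32 ± 0.22 (adjusted p 6.96e-06), after 0.47 at 0.5 h. The protease gene ATG4 (YNL223W), the activating enzyme gene ATG7 (YHR171W) and the conjugating enzyme gene ATG3 (YNR007C) had changes of 0.79, 0.78 and 0.78 at 0.5 h. ATG10, the conjugating enzyme gene for Atg12, had -0.45, and ATG12 (YBR217W), a second ubiquitin-like protein gene, -0.12.

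The selective autophagy genes held the largest SDS rise of any role, with 3 of 11 up at 0.5 h, where 8.49% of all genes rose. ATG34 (YOL083W, chromosome XV, 165714 to 166952), a receptor for the mannosidase Ams1, had 63.9, 64 and 61.4 CPM at SDS 0.5 h, against 10.9, 12.2 and 10.7 CPM in the control. No library overlapped, and the log2 change was 2.48 ± 0.16 (adjusted p 1.02e-14), then 2.20, 1.76 and 1.62 at 1, 2 and 4 h, all called. ATG19 (YOL082W, chromosome XV, 168727 to 169974) is the Cvt receptor gene, which resembles ATG34 and lies near it. It had 218, 201 and 202 CPM at SDS 0.5 h, against 69.5, 67 and 65 CPM in the control. These groups were also apart, at a log2 change of 1.62 ± 0.11 (adjusted p 8.23e-14) and of 1.08 and 1.08 at 1 and 2 h.

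ATG33 (YLR356W, chromosome XII, 840321 to 840914), a mitochondrial outer membrane protein gene needed for mitophagy, had 76.5, 64.9 and 75 CPM at SDS 0.5 h, against 21.2, 16.8 and 11.8 CPM in the control. All 3 SDS libraries were above the controls, which varied among themselves, and ATG33 rose by 2.11 ± 0.16 (adjusted p 5.05e-13) and by 1.70, 1.49 and 1.15 at 1, 2 and 4 h, the last being 0.96 and not called without control replicate 3. ATG39 (YLR312C, chromosome XII, 757637 to 758833), the receptor gene for the nuclear envelope, was the one selective gene that fell. It had 2.23, 1.83 and 0.308 CPM at SDS 20 h, from counts of 16, 15 and 2, against 6.75, 4.79 and 3.09 CPM in the control, from counts of 55, 36 and 22. The groups did not overlap, and the log2 change was -1.71 ± 0.45 (adjusted p 0.00401), with -1.10 at 2 h and -1.10 at 8 h. The 2 h and 8 h calls were each lost without control replicate 1 or 2, or without replicate 1 or 2 of that SDS time, which left 0 members called at 8 h.

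The other selective genes were not called in SDS. At 0.5 h the pexophagy receptor gene ATG36 (YJL185C) stood at 0.82, the scaffold gene ATG11 (YPR049C) at 0.61, the sterol glucosyltransferase gene ATG26 (YLR189C) at 0.60, the sorting nexin gene ATG20 (YDL113C) at 0.59 and the phosphoinositide-binding gene ATG21 (YPL100W) at 0.54. The mitophagy receptor gene ATG32 (YIL146C) stood at 0.33 and the endoplasmic reticulum receptor gene ATG40 at 0.23. ATG40 had its highest SDS change, 0.84, at 4 h. In the vacuolar group, ATG42 (chromosome II, 515664 to 517190) had 341, 286 and 285 CPM at SDS 0.5 h, against 109, 101 and 95.5 CPM in the control. The groups did not overlap, and ATG42 rose by 1.57 ± 0.17 (adjusted p 2.49e-09). The lipase gene ATG15 (YCR068W) and the amino acid exporter gene ATG22 (YCL038C) had changes of 0.83 and 0.44 at 0.5 h, and ATG22 stood at 0.86 at 4 h.

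**Figure D2:**
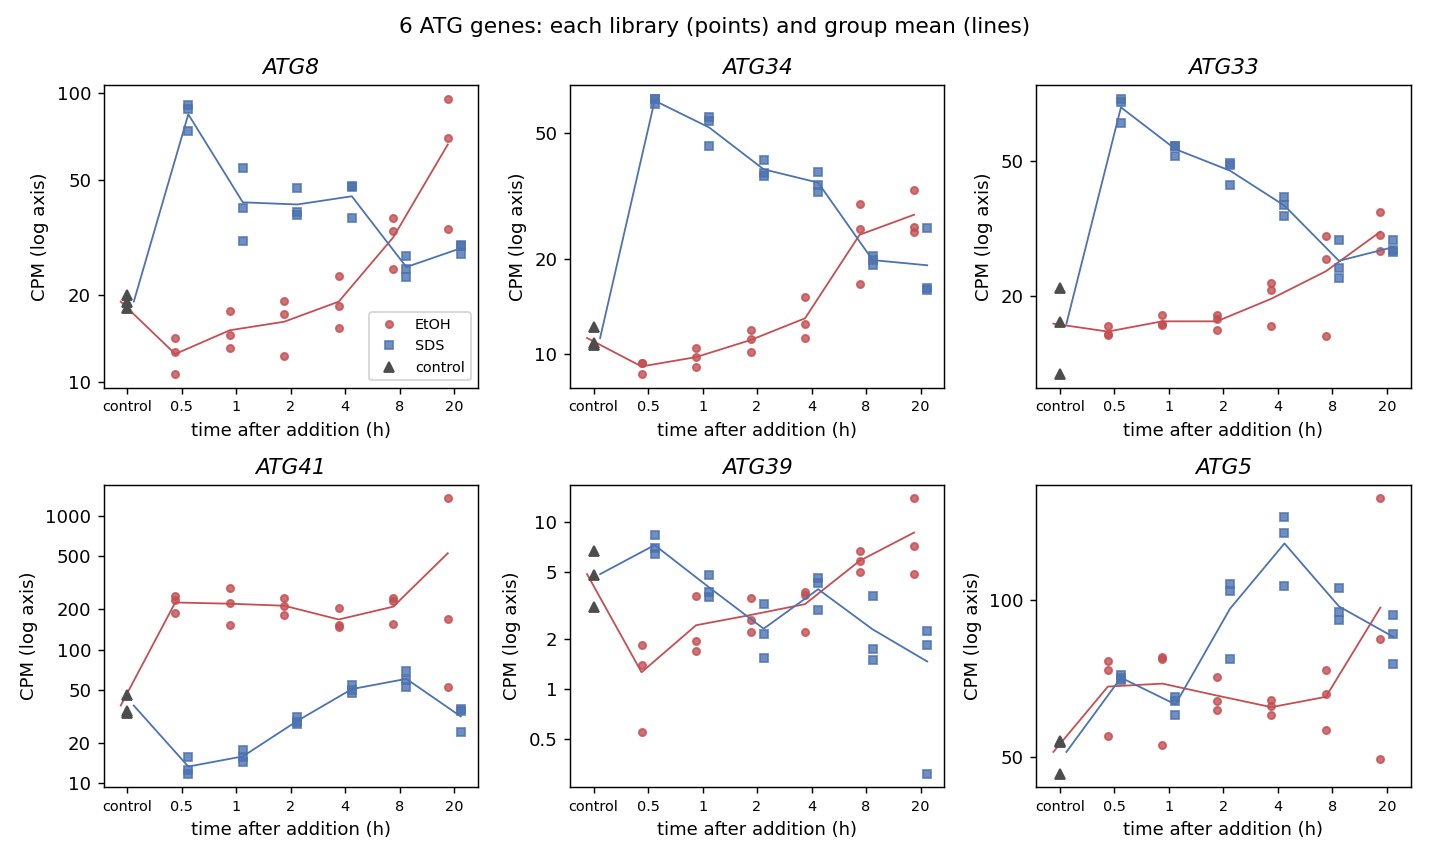
CPM (log axis) of 6 ATG genes in every library (points) and the group mean (lines), with the control at the left and then 0.5 to 20 h of EtOH (circles) and SDS (squares). The group means of ATG8, ATG34 and ATG33 are highest 0.5 h after SDS, ATG41 in the EtOH libraries up to 8 h lies between 147 and 288 CPM, and the EtOH 20 h libraries of ATG41 spread from 52.4 to 1360 CPM.

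The members called in EtOH numbered 1 or 2 at each time up to 8 h and 4 at 20 h. At 0.5 h, 1 member rose (0.918% of all genes) and 1 fell (1.26%), and at adjusted p alone 8 were lower, where 7.69% of all genes were. At 1 h, 1 rose (1.1%) and 0 fell (1.25%), and at 2 h 1 rose (1.56%) and 0 fell (1.28%). At 4 h, 1 rose (3.29%) and 1 fell (1.72%). At 8 h, 2 rose (7.2%) and 0 fell (3.02%), and at 20 h 4 rose (9.67%) and 0 fell (4.25%). For the counts of 0 in edgeR, 9, 6, 5 and 3 members were lower at an unadjusted p under 0.05 at 1, 2, 8 and 20 h, and DESeq2 called 0 at each.

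The members' medians were -0.19, -0.08, -0.11, 0.04, 0.31 and 0.46 from 0.5 to 20 h of EtOH, and those of all genes lay between -0.01 and 0.03. At adjusted p alone 20 members were higher and 2 lower at 20 h, where 30.3% of all genes were higher and 28.5% lower. Over any EtOH time 6 members changed, where 18.1% of all genes did, and 4 of them rose (10.7% of all genes) and 2 fell (7.49%). In 26 of 34 members the highest of the 6 EtOH changes was at 20 h, as in 35.9% of all genes. The count at 20 h was 7 without control replicate 1 and 8 without EtOH 20 h replicate 1, and that at 8 h was 4 without control replicate 1.

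ATG41 rose at every EtOH time. At 0.5 h it had 235, 253 and 188 CPM, against 45.8, 34.6 and 33.5 CPM in the control, with no overlap. Its log2 change was 2.57 ± 0.55 (adjusted p 0.0016), then 2.54, 2.49, 2.14 and 2.45 at 1, 2, 4 and 8 h. At EtOH 20 h it had 52.4, 170 and 1360 CPM, so the 3 libraries differed more from each other than the lowest did from the controls. The log2 change at 20 h was 3.80 ± 0.57 (adjusted p 1.37e-06), and without replicate 3 it was 1.55 (adjusted p 3.33e-05).

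ATG8 and ATG34 rose late in EtOH. ATG8 had 33.9, 69.4 and 95.2 CPM at EtOH 20 h, against 20, 19 and 18 CPM in the control. No library overlapped, and the log2 change was 1.80 ± 0.24 (adjusted p 1.54e-07), after -0.60 at 0.5 h and 0.76 at 8 h, neither called. ATG34 had 25.3, 33 and 24.4 CPM at EtOH 20 h, against 10.9, 12.2 and 10.7 CPM in the control. It rose by 1.12 ± 0.16 at 8 h (adjusted p 8.6e-07) and by 1.29 ± 0.16 at 20 h (adjusted p 6.8e-08). ATG23 had 55.5, 50.5 and 46.8 CPM at EtOH 20 h, against 24.5, 25.9 and 25.9 CPM in the control. Its libraries were close within each group, and its log2 change of 1.00 ± 0.15 (adjusted p 2.07e-06) sat at the limit of 1, with 0.97 without control replicate 1 and 0.94 without EtOH 20 h replicate 1.

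The falls in EtOH were in receptor genes. ATG39 had 0.551, 1.83 and 1.38 CPM at EtOH 0.5 h, from counts of 4, 15 and 10, against 6.75, 4.79 and 3.09 CPM in the control. These low levels did not overlap, and the log2 change was -1.94 ± 0.46 (adjusted p 0.00449). It then stood at -1.01, -0.82, -0.61, 0.27 and 0.83 from 1 to 20 h, none called. ATG40 (chromosome XV, 617518 to 618288) had 22.6, 25 and 27.3 CPM at EtOH 4 h, against 41.9, 54.1 and 54 CPM in the control. The groups did not overlap, and it fell by 1.00 ± 0.19 on the log2 scale (adjusted p 0.000141), at the limit. It was between -0.99 and -0.97 with RLE scaling, DESeq2, no filter or only the compared libraries, each time not called. The call was also lost without control replicate 2 or 3 or EtOH 4 h replicate 1 or 2, with a change down to -0.93. At the other EtOH times ATG40 was between -0.85 and -0.61.

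The remaining members were not called in EtOH. ATG42, ATG4 and ATG1 stood at -0.82, -0.80 and -0.72 at 0.5 h, and at 0.32, -0.09 and -0.03 at 20 h. Changes between 0.78 and 0.99 at 20 h were seen in ATG7, ATG5, ATG9, ATG33, ATG31, ATG2 and ATG15. ATG7 had 26.7, 44.1 and 70.8 CPM and ATG5 49.6, 84.1 and 156 CPM at EtOH 20 h, against 26.2, 21.9 and 22.9 CPM and 53.6, 46.5 and 53.4 CPM in the control. In both genes replicate 3 was highest, and the lowest EtOH library of ATG5 fell within the control range. ATG20 had 59.8, 94.4 and 188 CPM at EtOH 20 h, again highest in replicate 3, against 86.2, 82.1 and 79.6 CPM in the control.

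The last time was also set against 0.5 h within each stress. In SDS, edgeR called 0 members higher (7.54% of all genes) and 6 lower (4.61%) at 20 h than at 0.5 h. The lower ones were ATG39 at -2.27, ATG34 at -1.73, ATG8 at -1.53, ATG33 at -1.37, ATG42 at -1.09 and ATG19 at -1.05, the last lost without SDS 20 h replicate 3. ATG41 stood at 1.25, not called by edgeR on all libraries but called higher by DESeq2 (adjusted p 0.0462) and by edgeR on the compared libraries (adjusted p 0.000146). In EtOH, 8 members were higher (10.5%) and 0 lower (4.77%) at 20 h than at 0.5 h. These were ATG39 at 2.76, ATG8 at 2.40, ATG34 at 1.59, ATG41 at 1.23, ATG42 at 1.14, ATG29 at 1.10, ATG9 at 1.07 and ATG23 at 1.02, and the count was 5 without EtOH 0.5 h replicate 3. That library ended the calls of ATG41, ATG29 and ATG23. The call of ATG41 was also lost with the replicate block (adjusted p 0.0691), with only the compared libraries (adjusted p 0.338) and without EtOH 0.5 h replicate 1 or 2. ATG41 had 52.4, 170 and 1360 CPM at EtOH 20 h, against 235, 253 and 188 CPM at EtOH 0.5 h. Its higher mean at 20 h rested on replicate 3, and replicates 1 and 2 lay below every 0.5 h library. ATG23 lost its call without EtOH 20 h replicate 1, ATG29 without replicate 2 and ATG9 without replicate 3.

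At 4 h against 0.5 h of SDS, 1 member was higher (8.49%) and 2 lower (4.02%), ATG41 at 1.93, ATG42 at -1.34 and ATG7 at -1.01, and ATG7 lost its call without SDS 0.5 h replicate 1 or SDS 4 h replicate 2 or 3. At 4 h against 0.5 h of EtOH, 0 were higher (2.26%) and 0 lower (0.0983%) in edgeR. DESeq2, the fit of the compared libraries and the fit without EtOH 4 h replicate 3 each called 1 member there. At an unadjusted p under 0.05, 10 members were higher and 0 lower at 4 h of EtOH, 1 was higher at 20 h of SDS, and 1 was lower at 20 h of EtOH.

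EtOH was set directly against SDS at each time, a comparison that uses no control library. At 0.5 h, 1 member was higher in EtOH (12.5% of all genes) and 17 were lower (11.6%), with a median log2 difference of -0.94 over the members and -0.03 over all genes. At 1 h, 1 was higher (7.57%) and 7 lower (7.47%), at 2 h 1 (4.34%) and 6 (6.93%), and at 4 h 1 (4%) and 8 (7.1%). At 8 h, 3 were higher (5.34%) and 1 lower (3.33%), and at 20 h 4 were higher (8.64%) and 0 lower (5.2%). At 20 h in edgeR, 5 members were lower at an unadjusted p under 0.05 and DESeq2 called 0. At any time 23 members differed between the stresses, where 36.4% of all genes did, and their largest difference was higher in EtOH in 3 (20.3% of all genes) and lower in 20 (16.1%).

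At 0.5 h ATG34 had 8.68, 9.4 and 9.41 CPM in EtOH, against 63.9, 64 and 61.4 CPM in SDS. ATG8 had 14.2, 12.7 and 10.7 CPM in EtOH, against 90.8, 87.9 and 73.6 CPM in SDS. Both pairs of groups were far apart, with EtOH over SDS log2 differences of -2.78 ± 0.16 (adjusted p 7.8e-16) and -2.75 ± 0.25 (adjusted p 1.78e-11). ATG42 differed by -2.39, ATG33 by -2.20, ATG4 by -1.59, ATG19 by -1.57, ATG9 and ATG29 by -1.37 each, ATG3 by -1.30, ATG38 by -1.29 and ATG31 by -1.17. ATG4 had 18.2, 18.3 and 18.5 CPM in EtOH, against 55.6, 56.3 and 53.9 CPM in SDS, although it was called against the control in neither stress. The other members lower in EtOH were ATG39 at -2.50 and ATG2, ATG36, ATG1, ATG17 and ATG20, at -1.07 to -1.01, near the limit. Of these, ATG1 lost its call without replicate 1 of either stress, ATG17 and ATG20 without SDS replicate 1 or EtOH replicate 3, and ATG36 without EtOH replicate 1. ATG41 was the member higher in EtOH at 0.5 h, with 235, 253 and 188 CPM, against 15.5, 12.5 and 11.7 CPM in SDS, a log2 difference of 4.09 ± 0.61 (adjusted p 5e-07).

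At 4 h ATG40 and ATG22 held the larger differences outside the early set. ATG40 had 22.6, 25 and 27.3 CPM in EtOH, against 91.3, 86.7 and 90.1 CPM in SDS, with a log2 difference of -1.84 ± 0.19 (adjusted p 1.22e-09). ATG22 had 28.8, 31.8 and 22 CPM in EtOH, against 76.5, 69.4 and 62 CPM in SDS, with -1.33 ± 0.13 (adjusted p 5.3e-10). Neither pair of groups overlapped. ATG5 differed by -1.04 at 4 h and lost its call without SDS 4 h replicate 2 or 3, and ATG11 was called lower in EtOH at the limit but not with DESeq2 or RLE scaling, nor without EtOH 4 h replicate 2 or SDS 4 h replicate 3.

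At 20 h the members higher in EtOH were ATG41, ATG39, ATG8 and ATG7. ATG39 had 4.89, 7.22 and 13.9 CPM in EtOH, against 2.23, 1.83 and 0.308 CPM in SDS, with a log2 difference of 2.53 ± 0.43 (adjusted p 8.91e-06). ATG8 had 33.9, 69.4 and 95.2 CPM in EtOH, against 29.5, 29.9 and 27.7 CPM in SDS, with 1.19 ± 0.23 (adjusted p 4.45e-05). The groups did not overlap in either gene, but the ATG8 call was lost without EtOH 20 h replicate 3, at 0.83. ATG41 differed by 4.07 ± 0.58 (adjusted p 5.87e-07), and by 1.82 without that library. ATG7 differed by 1.00 ± 0.23 (adjusted p 0.000472), and by 0.59 without EtOH 20 h replicate 3 and 0.98 without SDS 20 h replicate 1, neither called.

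**Figure D3:**
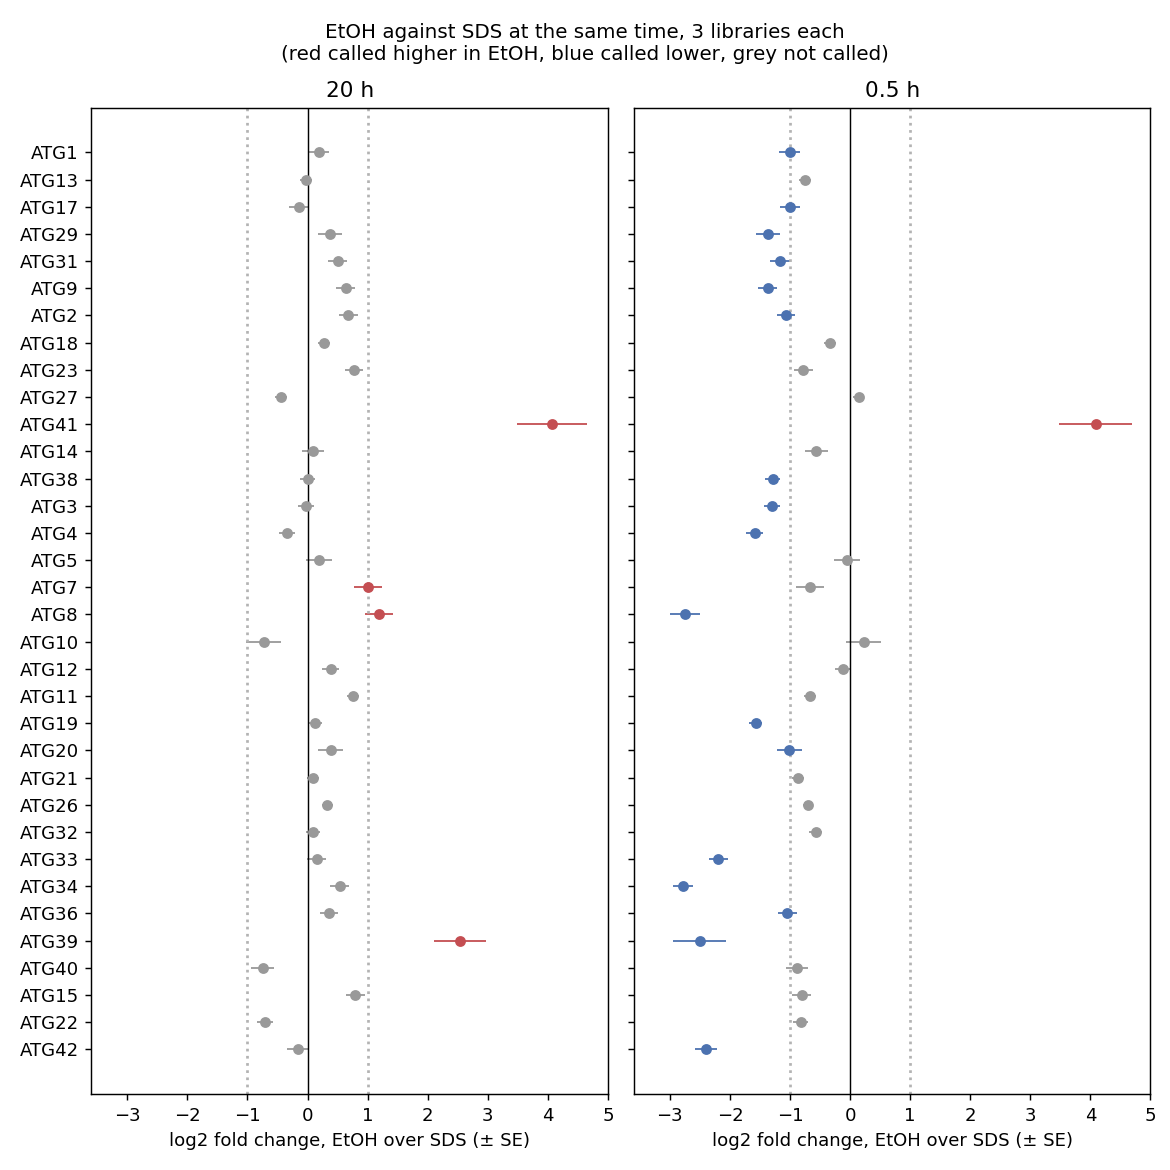
Log2 difference of EtOH over SDS (points, with SE bars) for the 34 tested ATG genes at 20 h (left) and 0.5 h (right), 3 libraries per stress and time. At 0.5 h 17 genes are called lower in EtOH (blue) and ATG41 higher (red), and at 20 h 4 genes are called higher and 0 lower.

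The change of that difference between the times was tested as well, a contrast chosen after seeing the data. The EtOH over SDS difference at 20 h minus that at 0.5 h was called positive in 21 of 34 members, where 15.2% of all genes were positive, and called negative in 0, where 13.3% of all genes were. In edgeR 2 members were negative at an unadjusted p under 0.05, and DESeq2 called 0. The median was 1.28 over the members and 0.11 over all genes. ATG39 at 5.03, ATG8 at 3.94, ATG34 at 3.31, ATG33 at 2.35, ATG42 at 2.23 and ATG9 at 2.01 were the largest. ATG27, ATG22, ATG40, ATG5 and ATG41 were among the 13 members without a call. Without EtOH 20 h replicate 3, ATG41 went from -0.025 to -2.27 and was called negative (edgeR adjusted p 2.28e-05). That fit also ended the positive calls of ATG20, ATG4 and ATG26, at 0.83, 0.92 and 0.87, and added one for ATG17, at 1.05. ATG10 was called negative without EtOH 0.5 h replicate 1 or 2 or SDS 0.5 h replicate 3, at -1.13, -1.03 and -1.03.

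The other genes of the pathway were read from a list of 46 in 5 groups, chosen with earlier results of these data known. The group of vacuolar hydrolases and cargo also counted the receptor gene CUE5. In SDS 7 of its 7 genes rose at 0.5 h, where 8.49% of all genes rose. AMS1 (YGL156W), the vacuolar mannosidase that Atg34 and Atg19 carry, had 330, 308 and 321 CPM at SDS 0.5 h, against 49.6, 46.4 and 45.8 CPM in the control. The groups were far apart, at a log2 change of 2.76 ± 0.22 (adjusted p 2.01e-12). APE1 (YKL103C), the aminopeptidase carried by Atg19, had 483, 417 and 430 CPM at SDS 0.5 h, against 81.6, 102 and 83.7 CPM in the control, and rose by 2.31 ± 0.21 (adjusted p 3.68e-11). The protease genes PRB1, PEP4, CPS1 and PRC1 rose by 2.21, 1.87, 1.83 and 1.14, and the ubiquitin-binding receptor gene CUE5 by 1.03, which was under 1 without replicate 1 of either group.

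In EtOH at 20 h, 3 of these 7 rose, where 9.67% of all genes did. APE1 had 280, 345 and 239 CPM, against 81.6, 102 and 83.7 CPM in the control, and AMS1 had 131, 156 and 89.7 CPM, against 49.6, 46.4 and 45.8 CPM in the control. No library overlapped, and their log2 changes were 1.69 ± 0.21 (adjusted p 4.82e-08) and 1.41 ± 0.21 (adjusted p 1.89e-06). PRB1 rose by 1.08, and was at 0.80 without EtOH 20 h replicate 3 and 0.98 without control replicate 3, neither called. At EtOH 0.5 h all 7 stood between -0.57 and -0.08 without a call, and CPS1 fell by 1.03 at 4 h, a call lost without control replicate 1 or 2, with no filter and with only the compared libraries.

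Among 8 transcription regulators of ATG genes, 3 rose in SDS at some time and 2 in EtOH, where 12.3% and 10.7% of all genes did. GAT1 (YFL021W), a GATA activator gene, had 83.3, 85.9 and 95.6 CPM at SDS 0.5 h, against 33.7, 34.8 and 31.8 CPM in the control. It rose by 1.40 ± 0.11 (adjusted p 1.08e-12), with no overlap. MSN4 (YKL062W), a stress activator gene, had 145, 127 and 80.3 CPM at EtOH 20 h, against 16.6, 13.2 and 15.7 CPM in the control. It rose by 2.95 ± 0.21 (adjusted p 9.15e-13), and in SDS by 1.07 ± 0.21 at 4 h (adjusted p 6.97e-05), where its change was 0.98 without control replicate 2. RPH1 (YER169W), a repressor gene of ATG transcription, rose by 1.06 at SDS 4 h and by 1.11 at EtOH 20 h. GCN4, whose level is mostly set by translation, had no call, with -0.12 to 0.73 in SDS and 0.10 to 0.41 in EtOH, and the Ume6 repressor gene UME6 had none either.

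Of 11 genes of nutrient signalling, LST8 (YNL006W), a subunit gene of the TOR complexes, was the one called, in EtOH. Over any time, 18.1% of all genes were called in EtOH and 25% in SDS. It had 350, 330 and 194 CPM at EtOH 0.5 h, against 84.9, 73.9 and 75.1 CPM in the control, a log2 change of 1.90. At EtOH 20 h it had 92.9, 244 and 1220 CPM, with 2.73 ± 0.47 (adjusted p 1.12e-05). Replicate 3 was far above the others, as for ATG41, and without it the log2 change of LST8 was 1.11 (adjusted p 0.00262). In SDS LST8 lay between -0.18 and 0.13. The kinase gene TOR1 ran from -0.32 to 0.14 in SDS and from -0.03 to 0.33 in EtOH, and the energy-sensing kinase gene SNF1 reached -0.76 in SDS and -0.91 in EtOH, without a call.

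In the 7 partners of the phosphatidylinositol 3-kinase and sorting nexins and the 13 fusion genes, edgeR called 0 in either stress over any time. Of all genes, 25% were called over any SDS time and 18.1% over any EtOH time. At an unadjusted p under 0.05, the largest change was positive in 4 and negative in 1 of the partners in SDS, and positive in 3 and negative in 4 in EtOH. Of the fusion genes, 5 were positive and 2 negative in SDS, and 2 positive and 4 negative in EtOH, and DESeq2 called 0 in both groups. The lipid kinase gene VPS34 and the sorting nexin gene SNX4 stood at 0.56 and 0.59 at SDS 0.5 h, and the SNARE gene VTI1 at 0.88.

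**Figure D4:**
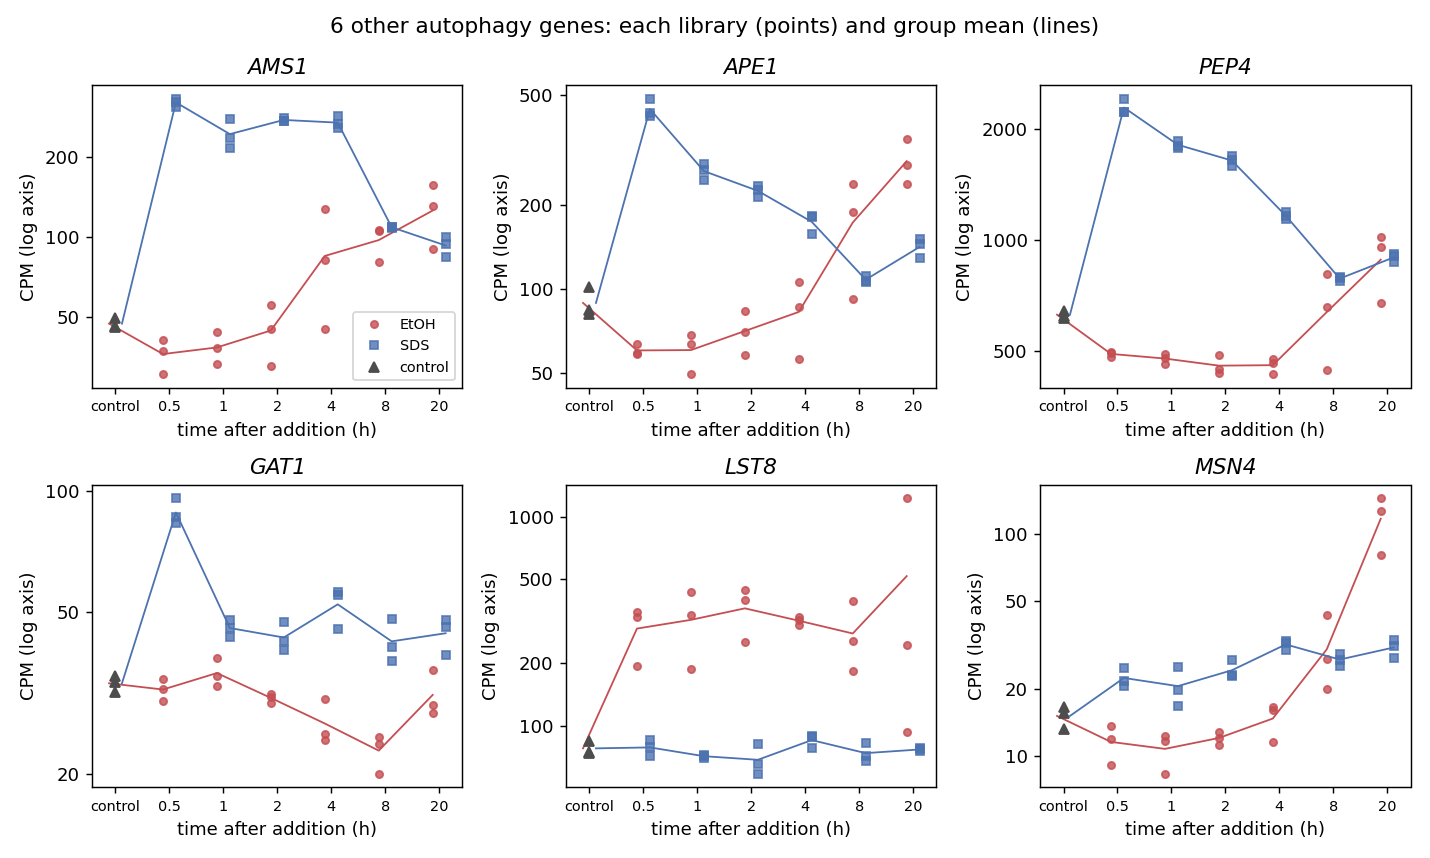
CPM (log axis) of 6 genes that act with the ATG genes, in every library (points) with group means (lines), control at the left and then 0.5 to 20 h of EtOH (circles) and SDS (squares). The group means of AMS1, APE1, PEP4 and GAT1 are highest 0.5 h after SDS, and the EtOH 20 h libraries of LST8 spread from 92.9 to 1220 CPM.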

How the data were processed

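Poly(A) RNA of BY4741 was measured in 39 libraries. The authors deposited raw counts per gene, whole numbers with no normalization. Per the submitters' processing notes, FastQC 0.11.9, Trimmomatic 0.39, STAR 2.7.8, featureCounts 2.0.1 and build R64 were used. For strand and multimapped reads, the setting is not given in the sources used here. In this account the *S. pastorianus* table is not used.

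The members, their roles and the list of pathway genes were chosen with earlier results of these data known. With edgeR 4.0.16 in R 4.3.3, features passing filterByExpr on the 13 groups (6101 of 7127) were scaled by TMM and fitted in 1 quasi-likelihood model with a coefficient per group and 26 residual degrees of freedom. The model was run on simulated counts drawn with the same spread in every group, and the outcome is not reported here. That check does not cover a group with a wider spread, such as EtOH 20 h. P-values were adjusted (Benjamini-Hochberg) over all genes tested. F tests covered the 6 times of a stress, with the largest of the 6 changes as the value. Standard errors were the log2 change, without its sign, divided by the root of F. The rule for naming took up to 4 called members per role and stress, or between stresses, and up to 2 pathway genes, at the time of largest change. Every other gene named with a value, CUE5, PRB1, PEP4, CPS1 and PRC1 among them, was picked with its values known. Upstream sequence was read for the 4 members with the largest called rise, and that of a related gene is not reported here.

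Each result was recomputed with DESeq2 1.42.0, RLE size factors, no filter, a replicate block, the compared libraries alone, and without each library in turn. The EtOH F test over 0.5 to 8 h and the contrast between times of the EtOH over SDS difference were added after seeing the data. Cultures were divided between the stresses, but the labels do not say that a replicate number marks a culture. In 0 of 22 comparisons did every same-numbered pair correlate above 0.1, so the block was kept as an alternative.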

Additional observations from a re-analysis of the deposited data

Results flagged for a closer look

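In 3 members edgeR's calls went in opposite directions, between the 2 stresses against the control at 0.5 h or between 0.5 and 20 h of EtOH against SDS, and the difference itself was tested. ATG41 was called in opposite directions against the control at 0.5 h, higher in EtOH (2.57) and lower in SDS (-1.52), and its EtOH over SDS log2 difference was 4.09. The call in SDS was lost when single libraries were left out of the fit on all groups, but was kept with only the compared libraries. The call between the stresses was not lost.

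ATG8 and ATG39 were called lower in EtOH than in SDS at 0.5 h and higher in EtOH than in SDS at 20 h, although the ATG8 call at 20 h was lost without EtOH 20 h replicate 3 (0.83). The EtOH over SDS difference at 20 h minus that at 0.5 h was 3.94 for ATG8 and 5.03 for ATG39. Without EtOH 20 h replicate 3 these were 3.58 and 4.50, both called. ATG39 rests on 2 to 16 counts per library at SDS 20 h and on 4 to 15 at EtOH 0.5 h.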

How the results depend on the processing

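Of 551 recomputed values of 49 named results, 527 kept their direction and their side of the threshold, 24 lost the call and 0 reversed. These 49 left out other values given above, among them ATG41 at 20 h against 0.5 h of EtOH and in the contrast between times. Without EtOH 20 h replicate 3 the latter was -2.27 and called, in place of -0.025. Of 353 recomputed counts of called members, 334 stayed within 1.5 times the count reported. The count at EtOH 4 h was 1 in place of 2 with RLE size factors, no filter, only the compared libraries and DESeq2. The count at 4 h against 0.5 h of EtOH was 1 in place of 0 with only the compared libraries and with DESeq2. Leaving out 1 library at a time, the counts ran from 0 to 1 at SDS 8 h, from 1 to 2 at EtOH 4 h, from 2 to 4 at EtOH 8 h, from 4 to 8 at EtOH 20 h, from 0 to 1 at 4 h against 0.5 h of EtOH and from 5 to 11 at 20 h against 0.5 h of EtOH. The cause was not tested, apart from the ATG40 change lying at the limit. Over 0.5 to 8 h of EtOH, without 20 h, 4 members changed in place of 6. With the replicate block, all counts stayed within 1.5 times, 7 in place of 8 at 20 h against 0.5 h of EtOH and 9 in place of 8 for EtOH over SDS at 1 h, and the calls of ATG23 at EtOH 20 h and of ATG41 at 20 h against 0.5 h of EtOH were lost. The labels do not say whether samples with the same number came from 1 divided culture, and their correlations were -0.316 to 0.218. ATG1 and ATG17 at EtOH over SDS 0.5 h were at the limit, and each lost its call in some alternatives. RLE size factors moved the median of all genes by at most 0.0297 and DESeq2 by at most 0.0286. The fit with no filter, which covers other genes, moved it by at most 0.0733. Low counts limit ATG39, ATG10 and ATG16.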
